A study of Rattus norvegicus with 6 samples.

Results

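The 44 genes described here encode the proteasome, its regulatory particles and its assembly factors. They were taken by symbol from the array annotation, as every gene named Psma, Psmb, Psmc, Psmd, Psme, Psmf or Psmg followed by a number and read by at least 1 probe set that names no other gene. They are 44 of the 14217 genes the array names in this way, and 44 of the 9928 genes with enough signal to be tested. The prefix also returned Psmc3ip, a recombination factor, and Psme3ip1, a protein that binds an activator of the proteasome. Neither encodes a subunit, and neither was counted.

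Gene expression was measured in brain macrophages sorted by flow cytometry as CD11b+CD163+ cells, which the labels describe as perivascular and meningeal macrophages (border-associated macrophages, BAMs). The ischemia group held rats 64, 65 and 66, in which the middle cerebral artery was occluded for 1 h and then reperfused for 16 h. The control group held rats 63, 68 and 69, which had no ischemia. All 6 animals were adult male Sprague-Dawley rats, the cells came from the right hemisphere, which holds the occluded artery's territory together with tissue outside it, and each array held the RNA of 1 rat. Values are log2 units of signal, so a difference of 1 log2 unit is a 2-fold difference, and differences are ischemia minus control ± standard error with 3 rats a group. In what follows the values of the rats are given in the order 64, 65 and 66 for ischemia and 63, 68 and 69 for control.

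The proteasome degrades proteins that carry a chain of ubiquitin. Its barrel, the 20S core, stacks outer rings of alpha subunits on inner rings of beta subunits, some of which cut the protein chain, and a 19S cap recognizes the substrate, removes the ubiquitin and unfolds the chain with a ring of ATPases. In immune cells exposed to interferon the catalytic subunits Psmb5, Psmb6 and Psmb7 are replaced in new particles by Psmb8, Psmb9 and Psmb10, and the activator made of Psme1 and Psme2 can take the place of the cap. This immunoproteasome is known for producing peptides that MHC class I molecules present. The arrays measured RNA only, not subunits or their activity.

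Short stretches upstream of or around the start sites are shown for 6 members on which the comparison turns, because they hold letters of elements by which these genes are known to be controlled in mammals. They come from RefSeq (build GRCr8), which gave 300 bases around the start site for 40 of the 44 members, 250 before the start site and 50 after it. Psma7, Psmd6, Psmd12 and Psmd14 had no entry. Capitals mark the match, and positions are counted from the start site to the first base of the match. The first set holds TGACNNNGC, the core of the antioxidant response element, in Psmb5 and Psmd1, which rose, and in Psmb2, which did not pass the test.
Psmb5 (chr15:32047421-32047449, minus strand, position -60): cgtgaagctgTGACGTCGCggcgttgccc
Psmd1 (chr9:94157796-94157824, plus strand, position -165): accagatctaTGACCTCGCgagaattata
Psmb2 (chr5:144254980-144255008, plus strand, position -68): cccgcgccaaTGACCGGGCggtcgcatat
The second set holds GAAANNGAAA, the core of the interferon-stimulated response element, or the same letters read on the opposite strand, in the immune subunits Psmb8 and Psmb10, which did not pass the test, and Psme2, which rose. The stretches of Psmb8 and Psme2 lie within the annotated extent of these genes, and the others before it.
Psmb8 (chr20:4657016-4657045, minus strand, position -4): gtgctgtggcTTTCGCTTTCacttccttgt
Psmb10 (chr19:50743346-50743375, minus strand, position -73): aagcaaaggcGAAAGTGAAAgagaagatgc
Psme2 (chr15:33052785-33052814, minus strand, position -53): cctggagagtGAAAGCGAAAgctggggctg

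At 16 h of reperfusion 28 of the 30 constitutive genes of core and cap were higher in BAMs of ischemic rats, all but Psma7 and Psmb2. Of the 5 immune subunits Psme2 was higher, and Psmb8, Psmb9, Psmb10 and Psme1 did not pass the test. Of the 44 members, 31 (70.5%) were higher in ischemia and 0 were lower at an adjusted p under 0.01 (limma, moderated by empirical Bayes, Benjamini-Hochberg over 9928 genes). Over all genes tested, 16.8% were higher and 5.99% were lower by the same rule. All 3 ischemic rats exceeded all 3 controls for 37 members, against 35.7% of all genes, and lay below all controls for 1 member, against 19.9% of all genes. The median log2 fold change of the members was 0.83, a 1.78-fold difference, with a range of -0.20 to 1.35, and that of all genes tested was 0.10. The highest rises were those of Psmc5, Psmd12 and Psma3.

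The count of 31 depended on the variance model and on the scaling. Without moderation 0 members and 0 genes of the whole array passed, with the lowest adjusted p of a member at 0.0125 and 37 members at an unadjusted p under 0.05. With arrays centred on their ribosomal protein genes 2 members passed and the median was 0.40, beside a median of all genes of -0.32. Leaving out ischemic rat 65, ischemic rat 66 or control 69 left 12, 16 and 20 members. The calls of 12 members held whichever rat was left out, those of Psma3, Psma4, Psmc1, Psmc3, Psmc4, Psmc5, Psmd1, Psmd3, Psmd11, Psmd12, Psmd14 and Psme2.

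**Figure D1:**
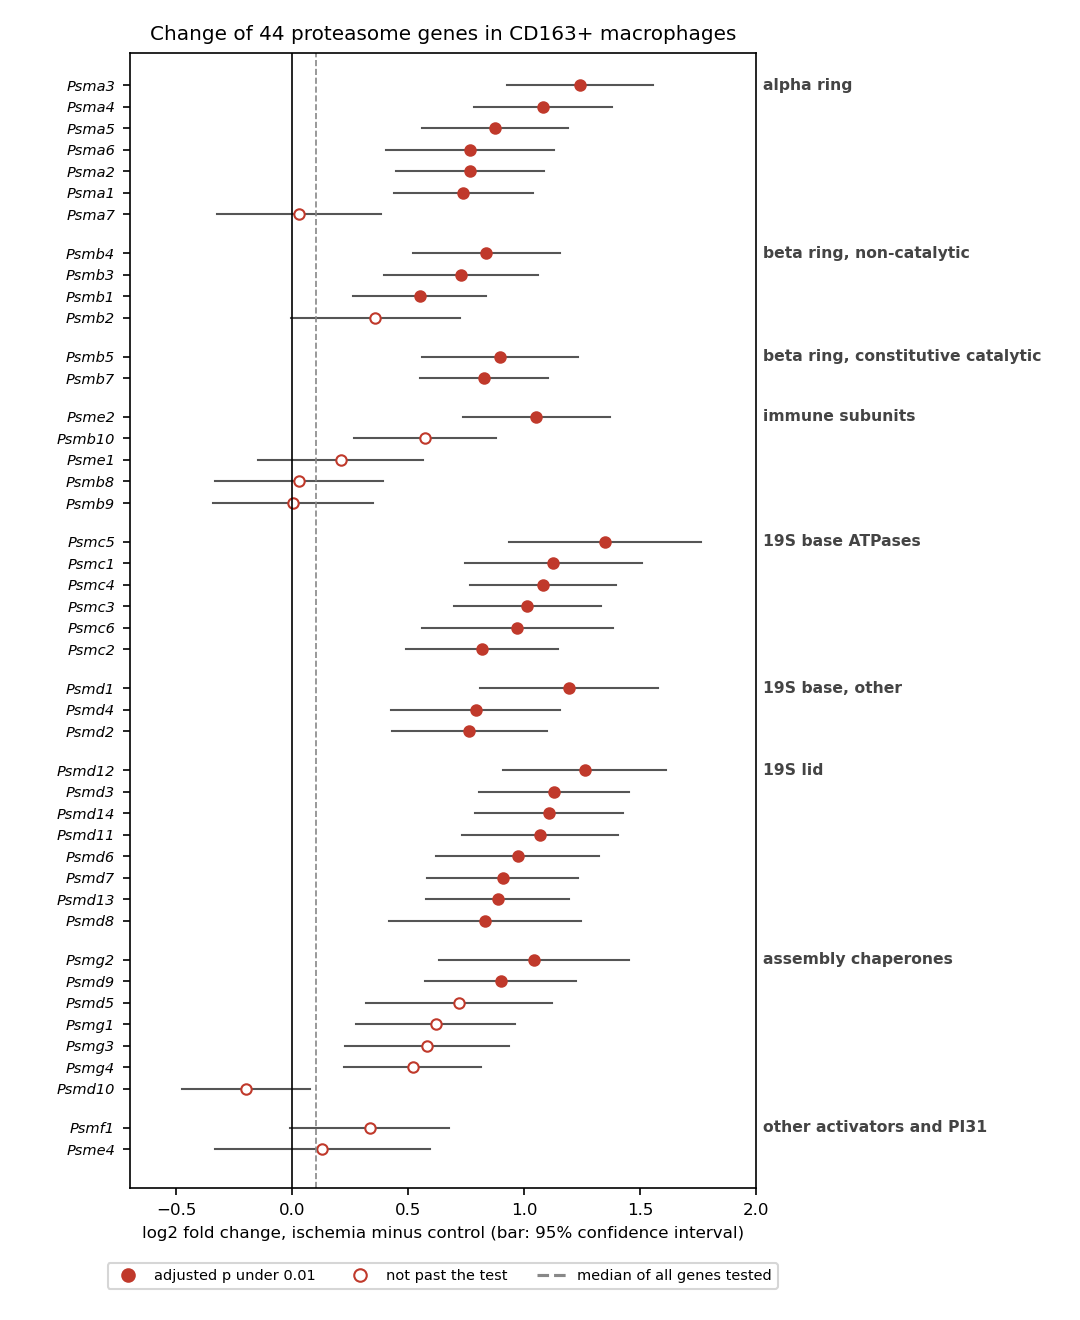
Log2 fold change (ischemia minus control, x axis, log2 units) of each of the 44 members, grouped by role, with 95% confidence intervals from limma. Filled points passed an adjusted p of 0.01, the solid line is 0 and the dashed line is the median of all genes tested, 0.10. All 17 genes of the 19S cap with the prefix are filled, and of the 5 immune subunits only Psme2 is.

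The ribosomal values bear on control 63. The array of this rat reached a highest value of 13.85, while those of the other 5 lay between 14.88 and 14.96. Its mean over ribosomal protein genes was 12.54, against 13.35 to 13.43 in ischemic rats and 13.18 and 13.20 in the other controls. It was the lowest of the controls for 36 of the 44 members. Without control 63, 22 members were higher and the median was 0.74, and with the ribosomal centring as well 7 members were higher and the median was 0.53. The 3′ to 5′ difference of the actin control probe sets was 0.17 to 0.24 in ischemic rats and 0.058 to 0.073 in controls, and that of Gapdh was 0.75 to 0.80 in ischemic rats and 0.52 to 0.65 in controls. Control 63 also had the highest signal of endothelial and astrocyte genes among the controls, with Cldn5 at 7.13, 7.84 and 7.73 in ischemic rats, against 10.52, 6.09 and 7.03 in controls. Slco1a4 measured 6.60, 6.40 and 6.19 in ischemic rats, against 10.38, 6.29 and 7.19 in controls, Kdr measured 5.70, 6.15 and 6.75 in ischemic rats, against 9.39, 5.36 and 5.94 in controls and Aqp4 measured 7.83, 8.23 and 8.48 in ischemic rats, against 10.18, 7.78 and 7.68 in controls, where the first control value is that of control 63. The part of these differences between arrays in the result was not tested. All 44 members had both group means above 7.72, the 90th percentile of 27 genes of other tissues.

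Cd163, the marker of the sort, measured 14.11, 14.02 and 13.38 in ischemic rats, against 12.63, 13.86 and 13.41 in controls. Of the 10 BAM markers, 8 had a negative difference and the median was -0.76. Only Colec12 passed the test (-1.95 ± 0.27, adjusted p = 0.00143), and Ms4a7, Stab1 and Pf4 had differences of -1.02, -0.96 and -0.93. The log2 of the summed signal of the list was 16.16 to 16.99 in ischemia and 16.37 to 17.42 in control. Markers of other cells changed too. Of 6 granulocyte markers tested 3 were higher, with differences of 3.36 for S100a8, 3.34 for Lcn2 and 2.86 for Mmp9. S100a9 (2.19), Csf3r (0.93) and Cxcr2 (-0.50) were not past the test. Camp and Mmp8 had too little signal to be tested. The log2 of the summed signal of all 8 on the array was 10.84 to 11.998 in ischemia and 9.93 to 10.30 in control. Of 8 monocyte markers 6 were higher, with differences of 6.74 for Vcan, 5.96 for Fn1, 4.68 for Ly6c, 2.10 for S100a4, 1.31 for Plac8 and 0.91 for Cd14. Ccr2 (0.43) and F13a1 (-0.77) were not past the test, and F13a1 is also on the list of BAM markers. The log2 of the summed signal of all 8 was 15.70 to 16.24 in ischemia and 14.68 to 15.11 in control. Of 8 oligodendrocyte markers 3 were lower, with differences of -2.32 for Ermn, -1.93 for Mobp and -1.83 for Mbp. Their list had a log2 summed signal of 12.04 to 12.80 in ischemia and 13.28 to 14.46 in control. Of 7 microglia markers tested 1 was lower, P2ry12 (-1.78 ± 0.23, adjusted p = 0.00109). Not past the test were Gpr34 (-1.71), Sall1 (-0.13), Tgfbr1 (-0.07), Slc2a5 (0.26), Tmem119 (0.61) and Cx3cr1 (0.68). The log2 summed signal of the microglia list was 13.97 to 14.62 in ischemia and 14.29 to 14.40 in control. Of 5 astrocyte markers tested 1 was higher, Gfap (2.07 ± 0.41, adjusted p = 0.00563). Slc1a2 (-0.60), Aqp4 (-0.37), Slc1a3 (0.13) and Gja1 (0.23) were not past the test. The log2 summed signal of the astrocyte list was 11.48 to 11.95 in ischemia and 10.47 to 12.33 in control. Of 4 neuron markers tested 1 was higher, Eno2 (3.00 ± 0.26, adjusted p = 0.000312). It measured 10.32, 11.12 and 11.18 in ischemic rats, against 7.60, 7.80 and 8.23 in controls. Snap25, Tubb3 and Rbfox3 were not past the test, with differences of 0.15, -0.34 and -0.02. Syt1, Stmn2 and Nefl had too little signal to be tested. The log2 summed signal of the neuron list, Eno2 included, was 11.09 to 11.58 in ischemia and 10.05 to 10.13 in control. Of 4 endothelial markers tested 0 passed (limma) and 1 had an unadjusted p under 0.05, Tek (-1.93 ± 0.50, adjusted p = 0.0163), and the log2 summed signal was 10.99 to 11.31 in ischemia and 10.90 to 12.87 in control. Of 6 lymphocyte markers tested 1 was higher, Cd2 (1.58 ± 0.28, adjusted p = 0.00387). Cd7 (-3.12 ± 0.33, adjusted p = 0.000562) and Cd5 (-1.05 ± 0.20, adjusted p = 0.0052) were lower. Cd79b and Lck had differences of -0.06 and -0.10. The log2 of the summed signal of all 12 lymphocyte markers was 10.99 to 11.38 in ischemia and 11.60 to 11.83 in control. Cd7 gave the largest part of that sum in controls, which does not rank the genes, as levels of different probe sets cannot be compared. It measured 8.58, 7.78 and 7.12 in ischemic rats, against 11.18, 10.76 and 10.90 in controls. Cd3e, Cd3g and Ms4a1 lay between 4.41 and 5.49 on all arrays, and Cd3d lay between 6.44 and 7.31 in ischemia and between 6.28 and 7.18 in control. In sorted cells that are lysed together, fewer cells of a type and less RNA per cell cannot be told apart, and the part of other cells in the changes below was not tested.

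The alpha ring forms the gate of the core, through which the chain enters. Of its 7 measured subunits 6 were higher and 1 was not past the test, with a median of 0.77. Psma3 measured 9.84, 10.03 and 9.87 in ischemic rats, against 8.49, 8.81 and 8.70 in controls. The difference was 1.24 ± 0.14 (adjusted p = 0.000636). Psma4 measured 12.01, 12.20 and 12.22 in ischemic rats, against 10.97, 11.17 and 11.04 in controls, a difference of 1.08 ± 0.13 (adjusted p = 0.000847). The lowest ischemic rat exceeded the highest control by 1.03 for Psma3 and by 0.84 for Psma4. Psma3 has a copy, Psma3l, named with it on another probe set that was not used, and a part of Psma3l in the signal of Psma3 was not tested. Psma5 measured 11.63, 11.72 and 11.74 in ischemic rats, against 10.63, 10.997 and 10.84 in controls (0.87 ± 0.14, adjusted p = 0.00223). Psma6 measured 13.51, 13.56 and 13.65 in ischemic rats, against 12.51, 12.97 and 12.94 in controls (0.77 ± 0.16, adjusted p = 0.0065). In Psma6 the lowest value was that of control 63. Psma2 measured 12.45, 12.57 and 12.73 in ischemic rats, against 11.68, 11.96 and 11.81 in controls (0.77 ± 0.14, adjusted p = 0.00391), and Psma1 12.04, 12.34 and 12.11 in ischemic rats, against 11.40, 11.40 and 11.48 in controls (0.74 ± 0.13, adjusted p = 0.00363). Psma7 was the alpha subunit not past the test, with 12.55, 12.35 and 12.39 in ischemic rats, against 12.13, 12.52 and 12.54 in controls. Its groups overlapped, and the difference was 0.03 ± 0.15 (adjusted p = 0.887), with a 95% confidence interval of -0.32 to 0.38. Psma7 took a negative sign under 8 of its 22 alternative settings.

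Among the beta subunits without catalytic activity, 3 of 4 were higher, with a median of 0.64. Psmb4 measured 13.22, 13.45 and 13.35 in ischemic rats, against 12.34, 12.52 and 12.64 in controls (0.84 ± 0.14, adjusted p = 0.0027). Psmb3 measured 12.58, 12.64 and 12.61 in ischemic rats, against 11.63, 11.99 and 12.03 in controls (0.73 ± 0.14, adjusted p = 0.00558). Psmb1, with 12.82, 12.89 and 12.95 in ischemic rats, against 12.23, 12.46 and 12.33 in controls, had the smallest difference of all members past the test, 0.55 ± 0.13 (adjusted p = 0.00982), and lost its call under 17 of 23 alternative settings. Psmb2 measured 13.03, 13.07 and 13.16 in ischemic rats, against 12.42, 12.91 and 12.85 in controls. All ischemic rats were above all controls for Psmb2, yet the difference of 0.36 ± 0.16 (adjusted p = 0.103) was not past the test.

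Both measured catalytic subunits of the constitutive core were higher in ischemia. Psmb5, which carries the chymotrypsin-like activity, measured 12.29, 12.50 and 12.45 in ischemic rats, against 11.41, 11.75 and 11.39 in controls. The groups were separate, and the difference was 0.90 ± 0.15 (adjusted p = 0.00263), a 1.86-fold difference. Psmb7, which carries the trypsin-like activity, measured 12.58, 12.69 and 12.70 in ischemic rats, against 11.76, 11.81 and 11.91 in controls. Here too every ischemic rat was above every control, by a difference of 0.83 ± 0.12 (adjusted p = 0.00167). Psmb6, the third catalytic subunit, was read only by a probe set that also names its copy Psmb6l1 and has no value.

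The immune subunits differed among themselves. Of the 5, Psme2 was higher and 4 were not past the test, with a median of 0.21, against 0.84 for the 39 other members. Psmb8, which replaces Psmb5, measured 12.13, 11.77 and 12.18 in ischemic rats, against 11.90, 12.17 and 11.91 in controls. The groups overlapped, with rat 65 the lowest of all 6, and the difference was 0.03 ± 0.16 (adjusted p = 0.893), with a confidence interval of -0.33 to 0.39. Psmb9, which replaces Psmb6, measured 11.98, 11.74 and 11.53 in ischemic rats, against 11.80, 11.81 and 11.63 in controls. The controls lay within the range of the ischemic rats, and the difference was 0.0047 ± 0.15 (adjusted p = 0.982), with a confidence interval of -0.34 to 0.35. Psmb10, which replaces Psmb7, measured 11.95, 11.73 and 11.83 in ischemic rats, against 11.14, 11.40 and 11.24 in controls. Its groups were separate, and its difference of 0.57 ± 0.13 (adjusted p = 0.0105) missed the threshold of 0.01. Under 6 of 23 alternative settings Psmb10 passed, centring on array medians and array weights among them.

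**Figure D2:**
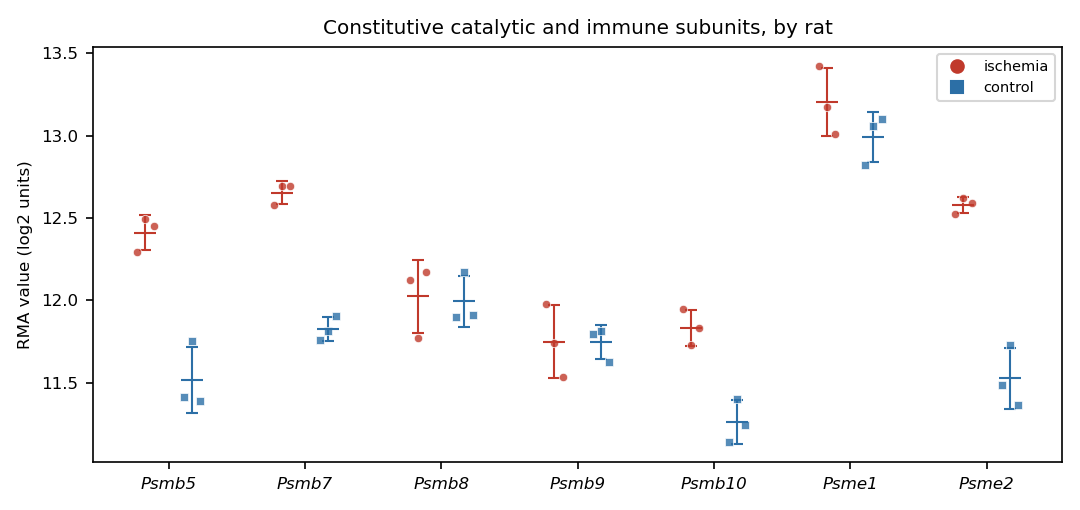
RMA value (y axis, log2 units) of the constitutive catalytic subunits Psmb5 and Psmb7 and of the 5 immune subunits in each rat. Circles are ischemic rats and squares are controls, with the mean as a bar and the SD as whiskers (n = 3 each). The groups are separate for Psmb5, Psmb7, Psmb10 and Psme2 and overlap for Psmb8, Psmb9 and Psme1.

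Psme1 and Psme2 form 1 activator and lie 6602 bases apart on chromosome 15 (GRCr8), and only Psme2 passed the test. Psme2 measured 12.53, 12.62 and 12.59 in ischemic rats, against 11.49, 11.73 and 11.36 in controls. Every ischemic rat was above every control, and the difference was 1.05 ± 0.14 (adjusted p = 0.00115), a 2.08-fold difference. Psme1 measured 13.42, 13.17 and 13.01 in ischemic rats, against 12.82, 13.06 and 13.10 in controls. The groups overlapped, with rat 66 below controls 68 and 69, and the difference was 0.21 ± 0.15 (adjusted p = 0.303), with a confidence interval of -0.14 to 0.56. Psmb8 and Psmb9 lie 11902 bases apart on chromosome 20, and for both the interval included 0.

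Within an array the immune subunit was compared with the constitutive one it replaces. The difference Psmb8 minus Psmb5 was -0.17, -0.72 and -0.27 in ischemic rats, against 0.49, 0.42 and 0.53 in controls. The groups did not overlap and the shift was -0.87. The exact two-sided permutation test of 3 against 3 rats gave p = 0.1, the smallest it can give (0.2 adjusted over the 2 pairs tested). The difference Psmb10 minus Psmb7 was -0.63, -0.97 and -0.86 in ischemic rats, against -0.62, -0.41 and -0.67 in controls. The groups overlapped, and the shift was -0.25 (exact permutation p = 0.2, adjusted 0.2). For Psme1 minus Psme2, a pair chosen after its values were seen and not tested, the difference was 0.90, 0.55 and 0.42 in ischemic rats, against 1.33, 1.33 and 1.74 in controls. The levels of different probe sets cannot be compared, so only these shifts between groups are readable.

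Genes of the 19S cap rose together. All 17 that carry the prefix were higher in ischemia, with a median of 1.01, a 2.02-fold difference, and a range of 0.76 to 1.35. Sem1, a small subunit of the lid that does not carry the prefix, measured 11.98, 12.07 and 12.13 in ischemic rats, against 11.29, 11.70 and 11.68 in controls and was not past the test (0.51 ± 0.15, adjusted p = 0.0276). Over the 13 constitutive genes of the core the median was 0.77. Of the 17 cap genes, 14 remained past the test without control 63, 9 without ischemic rat 65, 11 without ischemic rat 66 and 2 with ribosomal centring. Of the 11 core genes past the test, 6 remained without control 63, 6 without control 68, 5 without control 69, 2 without ischemic rat 65, 3 without ischemic rat 66 and 0 with ribosomal centring.

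The 6 ATPases of the base, which thread the substrate into the core, were all higher, with a median of 1.05. Psmc5 had the highest rise of all members, with 11.96, 12.19 and 12.13 in ischemic rats, against 10.46, 11.10 and 10.67 in controls. The difference was 1.35 ± 0.18 (adjusted p = 0.00123), a 2.55-fold difference, and control 63 was the lowest rat. Psmc1 measured 12.14, 12.29 and 12.26 in ischemic rats, against 10.80, 11.38 and 11.13 in controls (1.13 ± 0.17, adjusted p = 0.00177). Psmc4 measured 11.89, 12.15 and 11.99 in ischemic rats, against 10.79, 11.06 and 10.94 in controls (1.08 ± 0.14, adjusted p = 0.00103). Psmc3 measured 11.76, 11.91 and 12.01 in ischemic rats, against 10.71, 11.001 and 10.92 in controls (1.01 ± 0.14, adjusted p = 0.00131). In each of these genes the groups were separate. Psmc6 measured 11.56, 11.99 and 12.08 in ischemic rats, against 10.81, 10.75 and 11.14 in controls (0.97 ± 0.18, adjusted p = 0.00423), and 2 other probe sets of this gene gave differences of 1.52 and 1.23. Psmc2 had the smallest rise of the ring, with 12.26, 12.39 and 12.31 in ischemic rats, against 11.27, 11.65 and 11.58 in controls (0.82 ± 0.14, adjusted p = 0.00337).

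The other subunits of the base bind ubiquitin or the factors that deliver it. Psmd1, a scaffold of the base, measured 11.76, 12.01 and 12.09 in ischemic rats, against 10.51, 11.01 and 10.76 in controls (1.19 ± 0.17, adjusted p = 0.00143). Psmd2, which docks shuttle factors, measured 12.84, 13.12 and 12.90 in ischemic rats, against 12.03, 12.37 and 12.16 in controls (0.76 ± 0.15, adjusted p = 0.00474). Psmd4, a receptor for ubiquitin chains, measured 11.54, 11.60 and 11.61 in ischemic rats, against 10.49, 11.001 and 10.90 in controls (0.79 ± 0.16, adjusted p = 0.00599). All 3 were higher in ischemia, with the groups separate.

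The lid removes ubiquitin before degradation, and its 8 genes with the prefix were all higher, with a median of 1.02. Sem1, given above, was not past the test. Psmd14, the deubiquitinase, measured 12.24, 12.40 and 12.52 in ischemic rats, against 11.12, 11.40 and 11.31 in controls (1.11 ± 0.14, adjusted p = 0.00102). Its other probe sets gave differences of 1.54 and 1.02. Psmd7, the partner of Psmd14, measured 11.47, 11.60 and 11.45 in ischemic rats, against 10.62, 10.78 and 10.40 in controls (0.91 ± 0.14, adjusted p = 0.00214). A second probe set of Psmd7 rose by 1.01. The remaining genes encode structural subunits of the lid. Psmd12 had the highest rise among them, with 11.54, 11.77 and 11.75 in ischemic rats, against 10.22, 10.66 and 10.40 in controls (1.26 ± 0.15, adjusted p = 0.000892). Psmd3 measured 10.75, 10.80 and 10.78 in ischemic rats, against 9.42, 9.82 and 9.70 in controls (1.13 ± 0.14, adjusted p = 0.000996), and the ischemic rats differed from each other by less than 0.1. Psmd11 measured 11.76, 11.94 and 12.04 in ischemic rats, against 10.68, 11.04 and 10.82 in controls (1.07 ± 0.15, adjusted p = 0.00135). Psmd6 measured 11.64, 11.87 and 11.97 in ischemic rats, against 10.81, 11.06 and 10.69 in controls (0.97 ± 0.15, adjusted p = 0.00228). In Psmd6 the lowest value was that of control 69, not of control 63. Psmd13 measured 11.66, 11.79 and 11.73 in ischemic rats, against 10.68, 11.01 and 10.83 in controls (0.89 ± 0.13, adjusted p = 0.00197). Psmd8 measured 10.13, 10.24 and 10.43 in ischemic rats, against 9.08, 9.68 and 9.54 in controls, the widest spread among controls of the lid genes (0.83 ± 0.18, adjusted p = 0.00813).

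**Figure D3:**
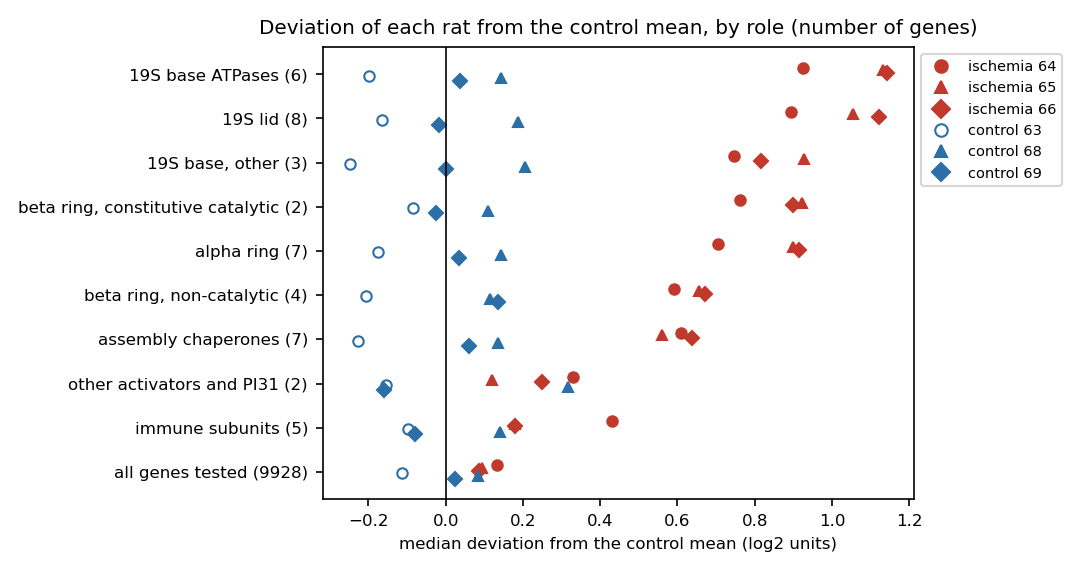
Median deviation of each rat from the control mean (x axis, log2 units) over the genes of each role, with the number of genes in brackets. Red symbols are ischemic rats, blue symbols are controls and the open circle is control 63. The ischemic rats lie at 0.89 or above for the base ATPases and the lid, and between 0.18 and 0.43 for the immune subunits.

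The rats were also compared over each role. Over the cap, the median deviation from the control mean was 0.88, 1.08 and 1.13 in ischemic rats, against -0.17, 0.18 and 0.0056 in controls. Over the constitutive core it was 0.70, 0.86 and 0.85 in ischemic rats, against -0.17, 0.12 and 0.056 in controls. Rat 64 was the lowest ischemic rat in both. Over the immune subunits rat 64 was the highest, with 0.43, 0.18 and 0.18 in ischemic rats, against -0.10, 0.14 and -0.081 in controls. Over all genes tested it was 0.13, 0.093 and 0.087 in ischemic rats, against -0.11, 0.084 and 0.025 in controls.

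Assembly chaperones build the particles and leave them when these are complete. Of 7 measured, 2 were higher and 5 were not past the test, with a median of 0.62. Psmg2, a chaperone of the alpha ring, measured 9.18, 9.44 and 9.64 in ischemic rats, against 8.15, 8.64 and 8.34 in controls (1.04 ± 0.18, adjusted p = 0.00317). Psmd9, a chaperone of the base, measured 9.61, 9.76 and 9.997 in ischemic rats, against 8.82, 8.90 and 8.95 in controls (0.90 ± 0.14, adjusted p = 0.00222). Psmd5, Psmg1, Psmg3 and Psmg4 had differences of 0.52 to 0.72 with adjusted p of 0.0122 to 0.0179 and separate groups. Psmd10 (gankyrin), another chaperone of the base, measured 10.26, 10.35 and 10.30 in ischemic rats, against 10.40, 10.56 and 10.54 in controls. It was the only member with a negative difference, -0.20 ± 0.12 (adjusted p = 0.215), and its ischemic rats all lay below the controls. Neither of the remaining regulators was past the test. Psme4, an activator that works without ATP, measured 11.96, 11.77 and 11.71 in ischemic rats, against 11.53, 12.13 and 11.39 in controls (0.13 ± 0.20, adjusted p = 0.628), and Psmf1 (PI31), an inhibitor of the core in vitro, measured 10.70, 10.47 and 10.79 in ischemic rats, against 10.16, 10.51 and 10.29 in controls (0.34 ± 0.15, adjusted p = 0.105).

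Several members were read by more than 1 probe set. The members had 58 probe sets, of which 52 were bright enough to be tested, and 9 genes had more than 1. Of the 8 further probe sets tested, 6 were higher, those of Psmc6, Psmd7, Psmd11 and Psmd14, and the 2 of Psme4 had differences of -0.37 and 0.19 that were not past the test.

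Partners of the proteasome that do not carry the prefix were compared in the same way. Of 18 tested, 9 were higher and 1 was lower, with a median of 0.57, and 14 had a positive difference. Zfand5 (-0.50), Zfand2a (-0.57) and Ngly1 (-0.02) had negative differences and were not past the test. Uchl5, a deubiquitinase of the cap, measured 11.35, 11.76 and 11.72 in ischemic rats, against 10.28, 10.64 and 10.56 in controls (1.12 ± 0.16, adjusted p = 0.00171). Usp14, the other deubiquitinase that binds the cap, measured 11.92, 12.06 and 12.12 in ischemic rats, against 10.92, 11.07 and 11.14 in controls (0.99 ± 0.13, adjusted p = 0.00116). Adrm1, the ubiquitin receptor to which Uchl5 binds, measured 9.38, 9.61 and 9.64 in ischemic rats, against 8.73, 8.72 and 8.60 in controls (0.86 ± 0.13, adjusted p = 0.00197). All 3 sit on the base and were separate between groups. Vcp, an ATPase that extracts substrates, measured 12.42, 12.42 and 12.43 in ischemic rats, against 11.65, 11.69 and 11.81 in controls (0.71 ± 0.12, adjusted p = 0.00283). Its cofactors Nploc4 and Ufd1 were higher as well, by 0.88 ± 0.14 (adjusted p = 0.00265) and 0.57 ± 0.12 (adjusted p = 0.00853). Txnl1 and Ecpas, which bind the assembled particle, were higher by 0.63 and 0.61. Of the shuttle factors, Rad23b was higher, by 0.73 ± 0.13 (adjusted p = 0.00399), and Ubqln2 was lower, with 11.16, 11.07 and 11.06 in ischemic rats, against 11.63, 11.88 and 11.94 in controls (-0.72 ± 0.13, adjusted p = 0.00428). Pomp, which completes new cores, had a difference of 0.44 ± 0.14 (adjusted p = 0.0341). Nfe2l1, the transcription factor that restores proteasome genes after inhibition, measured 9.64, 9.68 and 9.41 in ischemic rats, against 9.05, 9.44 and 8.83 in controls, with groups that overlapped (0.47 ± 0.18, adjusted p = 0.0663).

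Genes of the pathway that uses the peptides were compared next. Of 8 genes of MHC class I loading 1 was higher, Calr (calreticulin), a chaperone with 13.12, 13.35 and 13.26 in ischemic rats, against 12.25, 12.64 and 12.61 in controls (0.74 ± 0.15, adjusted p = 0.00648). The transporter genes Tap1 and Tap2, of which Tap1 lies beside Psmb9 in mammals, had differences of 0.36 ± 0.16 (adjusted p = 0.115) and 0.12 ± 0.13 (adjusted p = 0.504). Tapbp measured 10.17, 9.80 and 9.60 in ischemic rats, against 10.32, 10.31 and 10.65 in controls. Every ischemic rat was below every control for Tapbp, and the difference was not past the test (-0.57 ± 0.18, adjusted p = 0.037). Pdia3, Canx and Erap1 had differences of 0.45, 0.53 and 0.12, also not past the test. B2m, the light chain of class I molecules, measured 14.51, 14.53 and 14.51 in ischemic rats, against 13.61, 14.59 and 14.56 in controls, where control 63 alone stood apart (0.26 ± 0.25, adjusted p = 0.437). Of 5 interferon transcription factors 0 passed the test (limma), and 2, Nlrc5 and Stat2, had an unadjusted p under 0.05, in opposite directions. Stat2 had a difference of -0.36 ± 0.14 (adjusted p = 0.0786), with every ischemic rat below every control. Irf1, known to control Psmb9 and Tap1, measured 11.23, 10.62 and 9.90 in ischemic rats, against 10.94, 11.26 and 11.76 in controls. The ischemic rats spread over more than 1 log2 unit, and the difference was -0.73 ± 0.34 (adjusted p = 0.117). Nlrc5, an activator of class I genes, had a difference of 0.76 ± 0.19 (adjusted p = 0.013), with separate groups. Of the ubiquitin-activating enzymes Uba1 and Uba6, neither was past the test, with differences of 0.43 ± 0.14 (adjusted p = 0.0411) and 0.36 ± 0.13 (adjusted p = 0.0512).

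**Figure D4:**
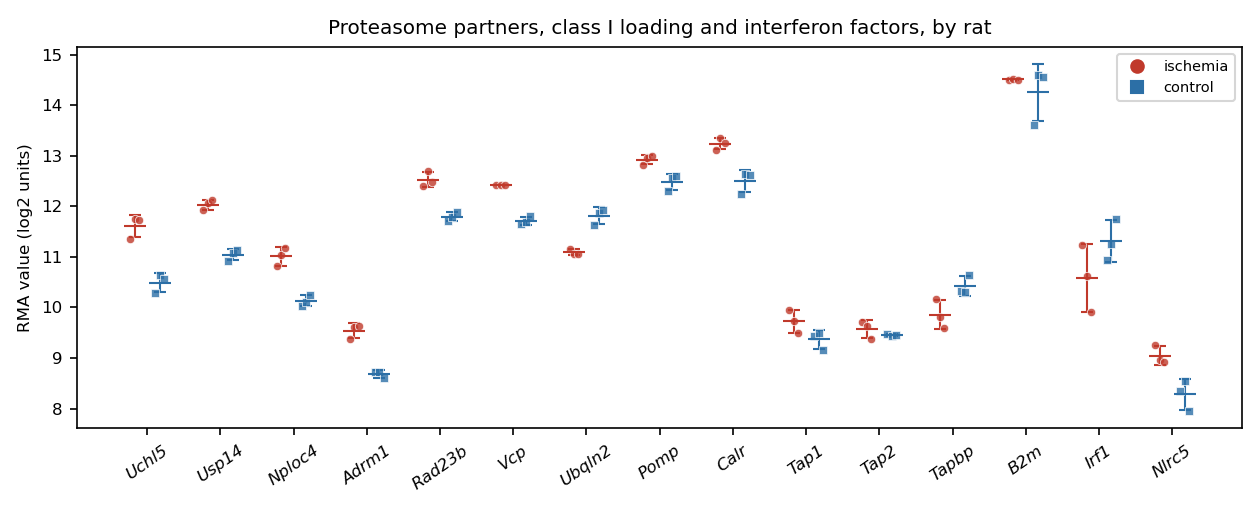
RMA value (y axis, log2 units) in each rat of genes that bind the proteasome (Uchl5 to Pomp), load class I molecules (Calr to B2m) or control interferon-response genes (Irf1 and Nlrc5). Circles are ischemic rats and squares are controls, with the mean as a bar and the SD as whiskers (n = 3 each). The control of B2m that lies apart, at 13.61, is control 63.

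The start-site sequences were searched on both strands, and a match describes letters, not binding. TGACNNNGC stood in 7 of 40 members (17.5%), against 12.1% of 33469 start-site sequences of the same length, in 5 of 28 members that rose and 2 of 12 that were not past the test. These 33469 sequences, the base of every share of all given here, were not limited to the genes tested. GAAANNGAAA stood in 7 of 40 (17.5%), against 3.92% of all, in 4 of 28 members that rose and 3 of 12 that were not past the test. Psmb8, Psmb10 and Psme2 held it, and so did Psma4, Psmb3, Psmd7 and Psmg4, which are not immune subunits. Thus the letters stood both in Psme2, which rose by 1.05, and in Psmb8, whose difference was 0.03. CCGGAAG, the core that ETS factors bind, stood in 13 of 40 (32.5%), against 8.75% of all, in 10 of 28 members that rose and 3 of 12 that were not past the test. CCAAT stood in 20 of 40 (50%), against 37.5% of all, in 14 of 28 members that rose and 6 of 12 that were not past the test. ACGTG, the core of the hypoxia response element, stood in 9 of 40 (22.5%), against 19.3% of all. It was in 8 of 28 members that rose and 1 of 12 that were not past the test. TTCNNNGAA, the GAS element of the interferon gamma response, stood in 4 of 40 (10%), against 8.87% of all. It was in 3 of 28 members that rose and 1 of 12 that were not past the test. None of these motifs holds another.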

How the data were processed

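RNA of the sorted cells was amplified by a method meant for little RNA and measured on Affymetrix whole-genome rat arrays, 1 per rat. The authors made the deposited log2 values with RMA, which corrects the background, quantile-normalizes the arrays and summarizes each probe set, for 31099 probe sets. The submitters' notes name limma 3.18 and R 3.3.1. The values were used as deposited. Genes were taken from the 20826 probe sets annotated with 1 symbol, each gene by its probe set of highest mean over the 6 arrays, and kept if its value was above 7.16 on 3 or more arrays (the 40th percentile of the deposited values). The groups were compared with limma 3.58.1 (R 4.3.3; lmFit, then eBayes), two-sided, with Benjamini-Hochberg adjustment over the 9928 genes kept and a threshold of 0.01 with no fold threshold. The fit was tested on simulated data.

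The members, roles and lists were chosen with earlier results of these data known, so no list was tested as a set. Values in every rat were given for the immune and catalytic subunits, for the members with the highest and lowest change in each role and for every member past the test. Further genes were the members of each list past the test, with up to 2 of highest mean not past it. Others were chosen after their values were seen. They were Pomp, Nfe2l1, Ngly1, Zfand2a, Nlrc5, Irf1, Tap1, Tap2, Tapbp, Canx, Erap1, Stat2 and markers of other cells. The 6 probe sets that name such a symbol beside others were not used. Coordinates come from RefSeq (GRCr8), in which all 44 members were found by their Entrez gene identifier. Precision was set by the number of rats, as arrays have no depth. Alternatives covered the filters, the probe set, scaling, moderation, weights, thresholds and each rat left out.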

Additional observations from a re-analysis of the deposited data

How the results depend on the processing

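In all 23 alternative settings 0 members were lower. The count of 31 higher members lay between 30 and 36 under other filters, probe set choices, median centring, repeated quantile normalization, trend and robust moderation, array weights and a threshold of 0.05. It was 2 with arrays centred on ribosomal protein genes, 0 without moderation, where all genes gave 0 calls too, 13 with a log2 fold change beyond 1 and 0 beyond 2. Leaving out 1 rat left 12 to 26 members. Other settings were added after seeing the data. Ribosomal centring with control 63 left out gave 7 members and a median of 0.53, repeated quantile normalization with control 63 left out gave 17 and 0.65, and centring on the median of all genes tested gave 27 and 0.66. The median, 0.83 as reported, was 0.40 with ribosomal centring and 0.68 with repeated quantile normalization. The scalings shifted the median of all genes, 0.10 as reported, to -0.32 with ribosomal centring and 0.018 with repeated quantile normalization, and the members' median stayed 0.63 to 0.83 above it in every setting but the low-variability filter (0.39). Over all genes, 1664 were higher and 595 lower as reported, 395 and 1356 with ribosomal centring, 521 and 511 with control 63 left out as well, 1391 and 929 with repeated quantile normalization, 896 and 519 with control 63 left out as well, and 1189 and 1179 with centring on the median of the genes tested.

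Signs turned only for members not past the test. Under ribosomal centring the differences were -0.39 for Psma7, -0.0662 for Psmb2, -0.40 for Psmb8, -0.42 for Psmb9, -0.22 for Psme1, -0.29 for Psme4 and -0.0900 for Psmf1, and with control 63 left out as well -0.31 for Psma7, -0.000977 for Psmb2, -0.23 for Psmb8, -0.18 for Psmb9, -0.0856 for Psme1 and -0.15 for Psme4. Under repeated quantile normalization they were -0.13 for Psma7, -0.14 for Psmb8, -0.17 for Psmb9 and -0.0358 for Psme4, and with control 63 left out -0.18, -0.12, -0.0793 and -0.0452. Centring on the median of all genes tested gave -0.14 for Psma7, -0.14 for Psmb8, -0.17 for Psmb9 and -0.0427 for Psme4. Array weights gave -0.0922 for Psma7 and -0.12 for Psmb8, and the mean of its probe sets -0.0138 for Psme4. With 1 rat left out Psma7 ranged over -0.10 to 0.10, Psmb8 ranged over -0.0454 to 0.16, Psmb9 ranged over -0.11 to 0.11 and Psme4 ranged over -0.0162 to 0.35. The causes were not tested.

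No paired analysis was possible because the rats of the groups share no replicate numbers. The planned comparison of Psmb9 with Psmb6 was not run, since Psmb6 had no probe set of its own. With 3 rats a group, the exact test cannot go below 0.1.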
